A study of Mus musculus with 16 samples.

Results

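The genes described here encode collagens and other components of the extracellular matrix, and they were measured by RNA-seq in tibialis anterior, a muscle of the lower hindlimb. The list holds 38 genes chosen by symbol, of 14538 genes in the deposited table, and all 38 passed the minimum mean of 10 normalized counts that left 11841 genes for testing. It falls into 6 groups: 6 fibrillar collagen genes, 10 basement membrane genes, 5 genes of collagens VI, XIV and XV, 9 genes of elastic fibres and matrix glycoproteins, 3 small leucine-rich proteoglycan genes, and 5 genes of crosslinking and turnover. Muscle tissue of 16 wild-type male C57BL/6 mice was used, 1 library per mouse. Vehicle was injected into 5 mice, and recombinant GDF15, a stress-induced cytokine that lowers food intake, was injected under the skin of 6 mice each day. The sample labels name a low dose of 0.3, a middle dose of 1 and a high dose of 5 nmol per kg without tying a dose to a mouse, so the GDF15 group may hold more than 1 dose. The 5 pair-fed controls received, day by day, as much food as the GDF15 group had taken on the previous day. All 3 groups shared the genotype, single housing, the NASH diet (a diet that brings on fatty liver disease) and a temperature of about 29 °C, both from 8 weeks of age, and no mice on a standard diet were compared. The question put to these genes was whether GDF15 or the smaller food intake alone went with a different level of matrix transcripts.

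Skeletal muscle fibres are each wrapped in a basement membrane, a sheet built from networks of laminin and collagen IV that nidogens and perlecan tie together. Outside it lies interstitial matrix made of fibrillar collagens I, III and V, collagen VI, fibronectin and small proteoglycans such as decorin, made for the most part by fibroblasts, with further basement membrane around capillaries. Lysyl oxidases crosslink collagen and elastin, matrix metalloproteinases cut them, and tissue inhibitors of metalloproteinases (TIMPs) hold the proteases in check.

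The sequences upstream of the genes that differed between groups are shown for the letters they hold. Of the 38 genes, 24 had a window from 250 bases before to 50 bases after the start of the gene in the RefSeq table (GRCm38.p6), 26 windows in all. Both strands were searched for the letters of a GC box, GGGCGG. They were also searched for a CCAAT box, which is named by its letters, and for the letters of a TATA box, which were taken as TATAAA. The GC box was found in 65.4% of the matrix windows and in 35.7% of all 32851 windows, the CCAAT box in 30.8% and 37.4%, and the TATA box in 7.69% and 13.6%. In the sequences below, read 5′ to 3′ on the strand of the gene, capitals mark these letters on either strand. Timp3 is shown up to the start of its GENCODE model, on the plus strand at chr10:86300162-86300371, and its only match, a GC box, lies between that end and the RefSeq start. Col5a3 is shown from the minus strand at chr9:20815068-20815317, with a CCAAT box that begins 122 bases and GC boxes that begin 63 and 41 bases before the start. Col4a1 and Col4a2 are transcribed away from each other from starts that lie 21 bp apart, so that 30 bases from the plus strand at chr8:11312771-11312800, upstream of Col4a2 and within the first exon of Col4a1, stand for the pair. The windows of both genes also held a GC box, outside these 30 bases.
Timp3: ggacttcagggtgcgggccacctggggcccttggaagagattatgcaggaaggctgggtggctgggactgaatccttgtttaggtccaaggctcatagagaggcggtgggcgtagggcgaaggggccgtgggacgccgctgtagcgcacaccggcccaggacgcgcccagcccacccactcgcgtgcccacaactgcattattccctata
Col5a3: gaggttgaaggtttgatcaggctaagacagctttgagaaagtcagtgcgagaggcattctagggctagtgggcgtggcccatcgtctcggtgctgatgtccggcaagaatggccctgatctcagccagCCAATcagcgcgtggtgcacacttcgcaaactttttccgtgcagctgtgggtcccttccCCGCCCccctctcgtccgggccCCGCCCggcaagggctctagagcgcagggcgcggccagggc
Col4a1 and Col4a2: ccCCAATttgttggcgctgccccctcccct

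The libraries had an approximate depth of 11883600 to 15039300 reads in the vehicle group, 9482760 to 13831300 in the GDF15 group and 11779700 to 14813400 in the pair-fed group. Levels are normalized counts, counts scaled for the depth of each library, and fold changes are differences of log2(normalized count + 1), on which the change of a gene with low counts is understated. Muscle fibre markers summed to 2177000 to 2431000 normalized counts in vehicle-treated mice (median 2301000) and 2205000 to 2447000 in GDF15-treated mice (median 2320000). In pair-fed mice they summed to 2361000 to 2673000 (median 2429000). The summed level of 6 tendon cell markers set some libraries apart. It was 101 to 147 in vehicle-treated mice, 178 to 1047 in GDF15-treated mice and 176 to 549 in pair-fed mice, and it was highest in GDF15-treated mice 1 (1047) and 2 (667) and in pair-fed mice 6 (549) and 2 (483). Since tendon is rich in matrix, calls were also made without these 4 libraries, which came from the GDF15 and pair-fed groups. That fit holds fewer mice, with the vehicle group left whole. In whole tissue, fewer cells of a type and less RNA per cell cannot be told apart.

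Few matrix genes differed between the groups, and by less than the fold that the study set for this muscle. Timp3, an inhibitor of metalloproteinases that binds to the matrix, was higher in pair-fed and in GDF15-treated mice than in vehicle-treated mice. The collagen IV chain gene Col4a2 was lower in both of these groups, and Col4a1 and the fibrillar collagen gene Col5a3 were lower in pair-fed mice. With limma, 0 of the 38 genes passed both thresholds of the study (adjusted p-value below 0.1, log2 fold change beyond 0.6 either way) in any comparison. Of all tested genes, 0.819% passed both when pair-fed mice were compared with vehicle-treated mice, 0.304% when GDF15-treated mice were, and 0.279% when GDF15-treated mice were compared with pair-fed controls. At an unadjusted p-value under 0.05 there were 8 (21.1%), 7 (18.4%) and 3 (7.89%) of the 38 genes in these comparisons, beside 18.9%, 11% and 13.2% of all tested genes.

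By the adjusted p-value alone, 4 of 38 genes (10.5%) were called with pair-feeding against vehicle, beside 6.37% of all tested genes. Of these, 1 was higher and 3 were lower, beside 3.2% and 3.17% of all tested genes. Between GDF15-treated and vehicle-treated mice 2 of 38 genes (5.26%) differed, 1 higher and 1 lower, beside 0.769% of all tested genes, of which 0.431% were higher and 0.338% lower. Comparing GDF15-treated mice with pair-fed controls, 0 of 38 did, beside 2.17%. The values of 1 gene did not overlap between pair-fed and vehicle-treated mice, beside 5.44% of all tested genes, those of 2 genes between GDF15-treated and vehicle-treated mice, beside 1.65%, and those of 0 genes between the GDF15 and pair-fed groups, beside 1.77%. Each group enters 2 of the 3 comparisons, which are therefore not independent of each other.

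**Figure D1:**
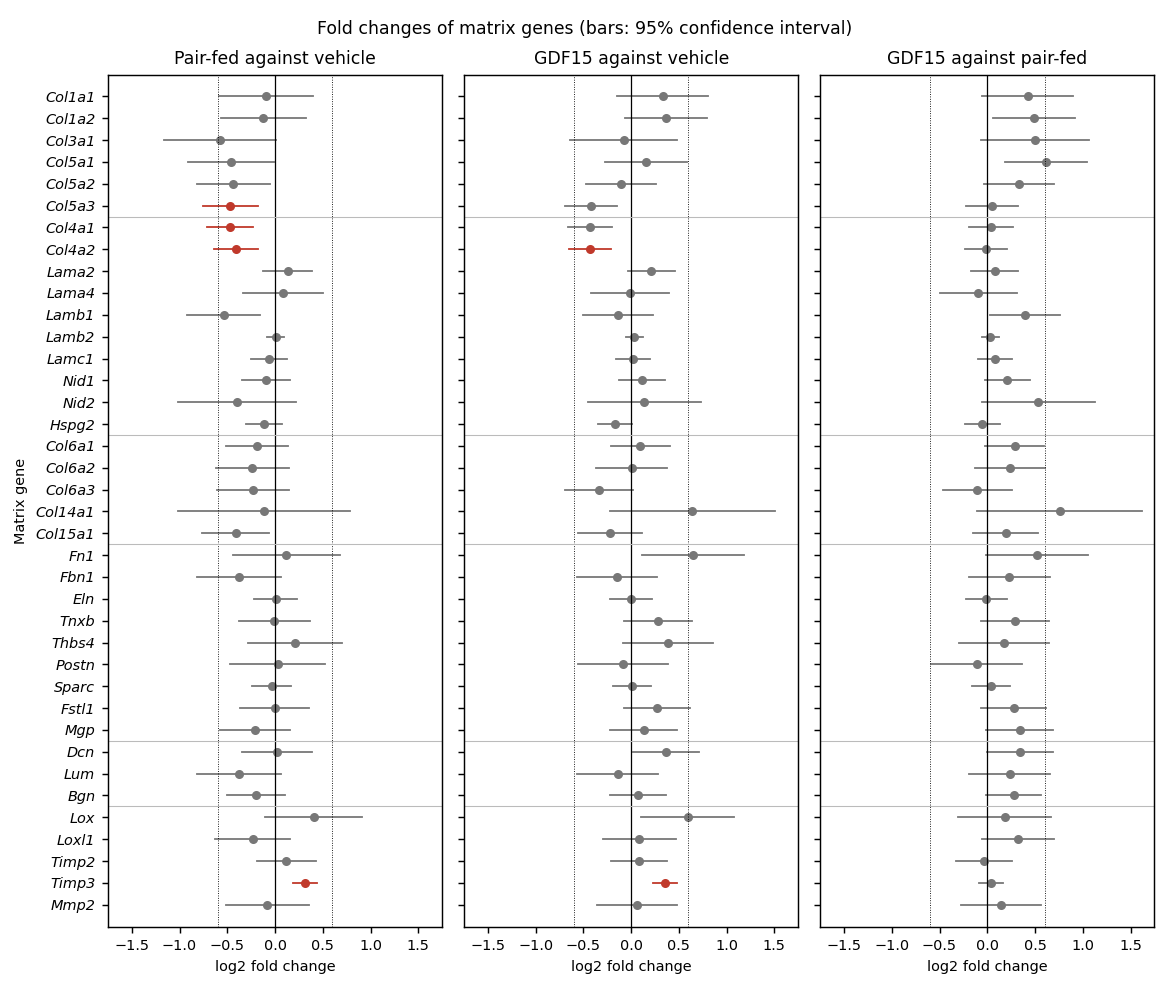
Log2 fold change (x axis, log2 units) of each of the 38 matrix genes (y axis, separated by lines into the 6 groups) in the 3 comparisons, with the 95% confidence interval as a bar; red marks an adjusted p-value under 0.1, and dotted lines mark 0.6 in either direction. Red points are Col5a3, Col4a1, Col4a2 and Timp3 on the left, Col4a2 and Timp3 in the middle and 0 genes on the right, where most points lie above 0.

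Timp3 gave the clearest difference. It lies on chromosome 10 (86300372 to 86349506, plus strand, GENCODE vM21 on GRCm38), within the gene Syn3, which is transcribed from the other strand. Its normalized counts were 1957, 1882, 1944, 1866 and 1756 in vehicle-treated mice 1 to 5. They were 2231, 2574, 2114, 2542 and 2254 in pair-fed mice 2 to 6, and from 2176 to 2638 with a median of 2425 with GDF15 treatment. Every GDF15-treated and every pair-fed mouse thus lay above every vehicle-treated mouse. Timp3 rose by a log2 fold change of 0.31 ± 0.06 (SE; 1.24-fold) with pair-feeding (limma, adjusted p = 0.0111) and by 0.35 ± 0.06 (1.28-fold) in GDF15-treated mice (adjusted p = 0.00951), compared with vehicle. Set against pair-feeding, GDF15 treatment gave a 95% confidence interval from -0.08 to 0.17 on the log2 scale (adjusted p = 0.806). The adjusted p-value stayed under 0.1 in all 28 alternative settings, with a highest value of 0.0544 for pair-fed mice and 0.0608 for GDF15-treated mice. Syn3, whose reads would join those of Timp3 if strand were ignored, held 2.89 to 18.7 normalized counts in any library.

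The other genes of crosslinking and turnover gave smaller or more variable values. Timp2, which inhibits metalloproteinases and also takes part in the activation of MMP2, had 1196 ± 159 normalized counts (SD, n = 5) in vehicle-treated mice, 1287 ± 316 (n = 6) in GDF15-treated mice and 1294 ± 150 (n = 5) in pair-fed mice. Its own target Mmp2, which encodes gelatinase A, had 294 ± 67.2, 309 ± 84.0 and 281 ± 83.9. These levels differed by less than the spread between mice. Lox, a lysyl oxidase, was among the weakly expressed genes, with 61.9, 65.6, 47.3, 44.9 and 44.9 normalized counts in vehicle-treated mice, and 77.5, 58.1, 72.2, 56.6 and 87.9 in pair-fed mice. In GDF15-treated mice it ranged from 43.6 to 128 with a median of 89.1, so that the group spanned the vehicle values. The log2 fold change of Lox, 0.59 ± 0.23 with GDF15 treatment (adjusted p = 0.339) and of 0.41 ± 0.24 with pair-feeding (adjusted p = 0.39) did not pass the test. Loxl1, whose product acts on elastin, had a log2 fold change of -0.24 ± 0.19 with pair-feeding compared with vehicle (adjusted p = 0.549) and of 0.32 ± 0.18 with GDF15 treatment compared with pair-fed controls (adjusted p = 0.468).

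Of Col4a1 and Col4a2, which encode chains of collagen IV, the network collagen of basement membranes, both fell in pair-fed mice, and Col4a2 alone passed the test in GDF15-treated mice. Col4a1 (chromosome 8, 11198423 to 11312826, minus strand) had 2460, 2821, 2008, 2054 and 2379 normalized counts in vehicle-treated mice and 1465, 1582, 2132, 1405 and 1916 in pair-fed mice. In GDF15-treated mice it ranged from 1449 to 1959 with a median of 1752, below every vehicle-treated mouse, whereas pair-fed mouse 4 lay among the vehicle values. Col4a1 fell in pair-fed mice with a log2 fold change of -0.47 ± 0.11 (0.722-fold, adjusted p = 0.0318). In GDF15-treated mice its log2 fold change of -0.43 ± 0.11 (0.742-fold) narrowly missed the threshold (adjusted p = 0.112).

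Col4a2 (chromosome 8, 11312805 to 11449287, plus strand) encodes the partner chain of the same collagen IV molecule. It had 2050, 2196, 1705, 2066 and 1880 normalized counts in vehicle-treated mice and 1285, 1349, 1771, 1351 and 1734 in pair-fed mice. In GDF15-treated mice it ranged from 1197 to 1718 with a median of 1447. The lowest vehicle-treated mouse, mouse 3, overlapped both other groups. Col4a2 fell with a log2 fold change of -0.41 ± 0.11 (0.752-fold, adjusted p = 0.0451) with pair-feeding and of -0.43 ± 0.10 (0.744-fold, adjusted p = 0.0939) in GDF15-treated mice. Neither chain passed the test between the GDF15 and pair-fed groups, with 95% confidence intervals from -0.19 to 0.27 for Col4a1 and from -0.24 to 0.20 for Col4a2. Without the 4 libraries with the highest tendon marker sums, the log2 fold change in pair-fed mice was -0.47 for Col4a1 (adjusted p = 0.146) and -0.42 for Col4a2 (adjusted p = 0.163), and the call of Col4a2 in GDF15-treated mice, held in 12 of 28 alternative settings, was also lost, at a log2 fold change of -0.416 (adjusted p = 0.227). First exons of the pair overlap by the stretch between their starts, and without strand the few reads from it cannot be assigned.

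The laminin, nidogen and perlecan genes of the basement membrane did not pass the test in any comparison. Lamb2, which encodes the laminin beta 2 chain, had the highest mean normalized count of the group over the 16 mice and was the least variable of the 38 genes. It had 2626, 2713, 2537, 2870 and 2517 normalized counts in vehicle-treated mice, 2478, 2618, 2703, 2821 and 2694 in pair-fed mice, and 2614 to 2883 with a median of 2705 with GDF15 treatment. The 3 groups overlapped almost completely, and its within-group SD of 0.07 on the log2 scale compared with a median of 0.32 over the 38 genes and of 0.17 over all tested genes. Lamb1, which encodes the laminin beta 1 chain, had a level more than 10 times lower per kb of exon, 25.4 against 436 normalized counts per kb in vehicle-treated mice. With pair-feeding its log2 fold change was -0.54 ± 0.18 compared with vehicle (adjusted p = 0.114), and 0.40 ± 0.17 in GDF15-treated mice compared with pair-fed controls (adjusted p = 0.331). The pair-fed values of Lamb1, 142 to 213, overlapped with vehicle-treated mice 1 and 3, and it passed the adjusted p-value in 5 of 28 alternative settings.

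Among the remaining basement membrane genes, Lama2, which encodes the alpha chain of the laminin around muscle fibres, had a log2 fold change of 0.21 ± 0.12 with GDF15 treatment compared with vehicle (adjusted p = 0.538). Nid2, a nidogen, varied widely, from 59.2 to 159 normalized counts over the 16 mice, with a log2 fold change of -0.40 ± 0.29 with pair-feeding (adjusted p = 0.511) and of 0.53 ± 0.28 with GDF15 treatment compared with pair-fed controls (adjusted p = 0.436). Nid1, its more abundant relative, had a log2 fold change of 0.21 ± 0.11 in the latter comparison (adjusted p = 0.448). Lama4, Lamc1 and Hspg2, which encode a laminin alpha chain of blood vessels, the shared gamma chain and perlecan, had log2 fold changes under 0.2 in size in all 3 comparisons. Mean levels of Lamc1 were 866 ± 92.5 in vehicle-treated, 877 ± 83.3 in GDF15-treated and 830 ± 101 (SD) in pair-fed mice, and those of Hspg2 were 2731 ± 374, 2425 ± 251 and 2509 ± 232.

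The fibrillar collagens were lower in pair-fed mice by estimate, with 6 of 6 log2 fold changes below 0 and a median of -0.45. Of the 6, only 1 (16.7%) passed the test, beside 6.37% of all tested genes. This was Col5a3, which encodes a chain of the regulatory fibril collagen V (chromosome 9, 20770050 to 20815067, minus strand). It had 389, 435, 280, 414 and 367 normalized counts in vehicle-treated mice, 242, 237, 322, 224 and 343 in pair-fed mice, and 237 to 337 with a median of 279 with GDF15 treatment. Vehicle-treated mouse 3, the lowest of its group, lay within the range of both other groups. Col5a3 fell in pair-fed mice with a log2 fold change of -0.47 ± 0.14 (0.724-fold, adjusted p = 0.0655), and had one of -0.42 ± 0.13 with GDF15 treatment (adjusted p = 0.216). Its call in pair-fed mice held in 19 of 28 alternative settings, and was lost, at a log2 fold change of -0.53, without the 4 libraries with the highest tendon marker sums. The partner chains Col5a1 and Col5a2 had log2 fold changes of -0.46 ± 0.21 (adjusted p = 0.257) and -0.44 ± 0.18 (adjusted p = 0.203) in pair-fed mice. Without vehicle-treated mouse 3, Col5a1 passed both thresholds in pair-fed mice with a log2 fold change of -0.64.

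Col1a2, which encodes a chain of collagen I, the main collagen of the interstitium, was the fibrillar collagen gene with the most counts. It had 902, 1293, 700, 959 and 1128 normalized counts in vehicle-treated mice, 1137, 681, 799, 666 and 1404 in pair-fed mice, and 997 to 1726 with a median of 1130 with GDF15 treatment. The 3 groups overlapped, and the 2 highest values belonged to GDF15-treated mice 1 and 2, which also had the 2 highest tendon marker sums. Its log2 fold change of 0.37 ± 0.20 with GDF15 treatment compared with vehicle (adjusted p = 0.54) and of 0.49 ± 0.20 compared with pair-fed controls (adjusted p = 0.306) did not pass the test. Col1a1, the other chain of collagen I, gave 0.33 ± 0.23 (adjusted p = 0.641) and 0.42 ± 0.23 (adjusted p = 0.441) in these comparisons. Col3a1, which encodes the collagen of fine fibrils around fibres and vessels, had a log2 fold change of -0.58 ± 0.28 with pair-feeding compared with vehicle (adjusted p = 0.272). Pair-fed mice 3 and 5 held its lowest values, 361 and 387 normalized counts, beside 591 to 1407 in vehicle-treated mice, and pair-fed mouse 6 held 1152.

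When GDF15-treated mice were compared with pair-fed controls, the estimate was above 0 for 6 of 6 fibrillar collagen genes, with a median of 0.455, and 0 of 6 passed. Col5a1 had the smallest p-value of the 38 genes there, with 194 to 385 normalized counts (median 275) in GDF15-treated mice and 172, 150, 189, 164 and 226 in pair-fed mice. The ranges overlapped between 194 and 226. Its log2 fold change was 0.61 ± 0.21 (unadjusted p = 0.00802, adjusted p = 0.193), with a 95% confidence interval from 0.18 to 1.04. Col3a1 and Col5a2 gave 0.50 ± 0.27 (adjusted p = 0.441) and 0.33 ± 0.17 (adjusted p = 0.433).

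**Figure D2:**
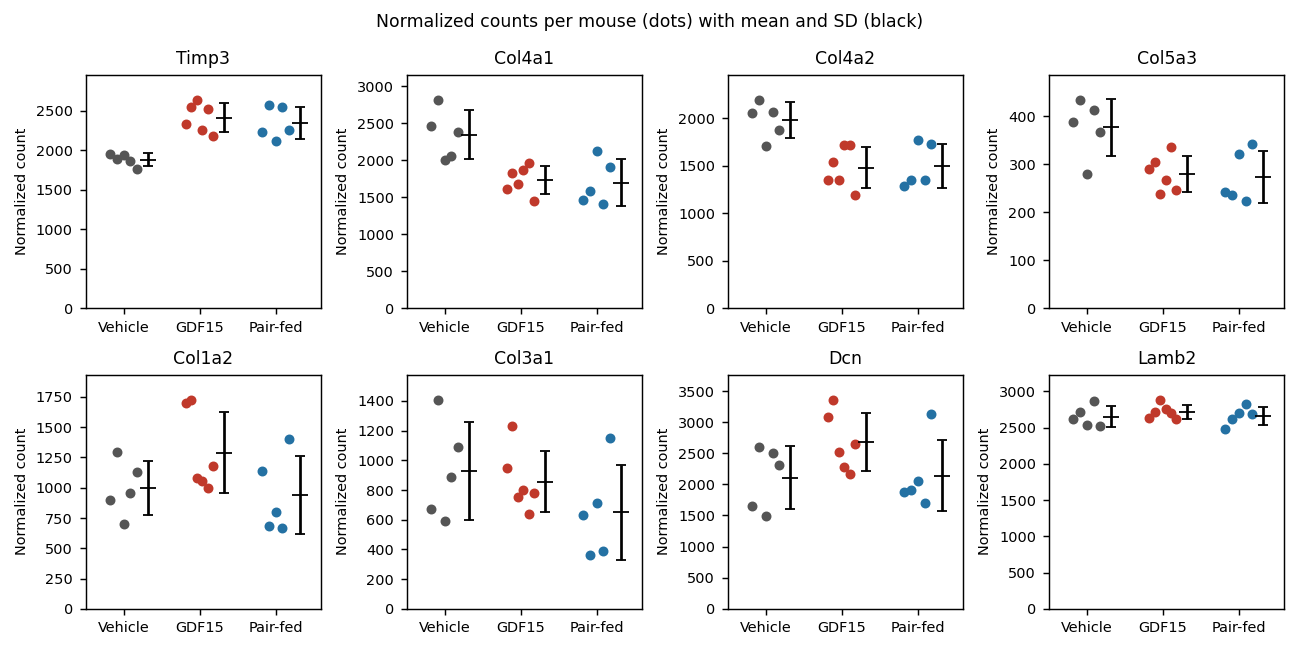
Normalized counts (y axis) of 8 matrix genes in each mouse (dots) of the vehicle, GDF15 and pair-fed groups (x axis), with the mean and SD in black. Timp3 in all GDF15-treated and pair-fed mice lies above all vehicle-treated mice and Col4a1 in all GDF15-treated mice lies below them, whereas Lamb2 is level and Col1a2, Col3a1 and Dcn are widely spread.

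Collagen VI, a beaded filament collagen that links the basement membrane to the interstitium, and collagens XIV and XV gave 0 of 5 calls in each comparison. In pair-fed mice 5 of 5 log2 fold changes lay below 0, with a median of -0.23. Col6a1 had 405, 668, 366, 564 and 552 normalized counts in vehicle-treated mice, 389, 400, 484, 378 and 554 in pair-fed mice, and 453 to 685 with a median of 527 with GDF15 treatment. These groups overlapped, and vehicle-treated mice alone covered most of the range of all 16. The log2 fold change of Col6a1 in GDF15-treated mice compared with pair-fed controls was 0.29 ± 0.15 (adjusted p = 0.416). Col6a2 gave 0.24 ± 0.17 in that comparison (adjusted p = 0.592) and -0.24 ± 0.18 in pair-fed mice compared with vehicle (adjusted p = 0.531). Col6a3, the third chain, gave -0.23 ± 0.18 in pair-fed mice (adjusted p = 0.53) and -0.34 ± 0.17 in GDF15-treated mice (adjusted p = 0.486), both compared with vehicle.

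Col15a1, which encodes a collagen at the outer face of basement membranes, had a log2 fold change of -0.41 ± 0.17 with pair-feeding (adjusted p = 0.193) and of -0.22 ± 0.16 with GDF15 treatment (adjusted p = 0.67). Its values in pair-fed mice, 224 to 390 normalized counts, overlapped with the 272 to 436 of vehicle-treated mice. Col14a1, which encodes a collagen bound to fibril surfaces, was the weakest per kb of exon at 7.53 normalized counts per kb, and the most variable of the 38 genes, with a within-group SD of 0.78 on the log2 scale. It ranged from 32.2 to 170 normalized counts in GDF15-treated mice and from 27.5 to 91.6 in the other mice. Its log2 fold change of 0.64 ± 0.41 with GDF15 treatment compared with vehicle (adjusted p = 0.608) and of 0.76 ± 0.41 compared with pair-fed controls (adjusted p = 0.449) had wide confidence intervals, the latter from -0.11 to 1.62.

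None of the 9 genes of elastic fibres and matrix glycoproteins passed the test, with 0 of 9 at an unadjusted p-value under 0.05 in pair-fed mice compared with vehicle, 1 in GDF15-treated mice compared with vehicle and 0 in GDF15-treated mice compared with pair-fed controls, beside 18.9%, 11% and 13.2% of all tested genes. Sparc, a collagen-binding glycoprotein, held the highest level per kb of exon of the 38 genes in vehicle-treated mice, 517 normalized counts per kb. It had 2094, 2147, 1756, 1858 and 1929 normalized counts in vehicle-treated mice, 1804, 1667, 2157, 1723 and 2230 in pair-fed mice, and 1744 to 2468 with a median of 1915 with GDF15 treatment. The groups overlapped throughout, with log2 fold changes under 0.2 in size in all comparisons. Fn1, which encodes fibronectin, was the gene with the unadjusted p-value under 0.05. It had 275, 578, 422, 454 and 436 normalized counts in vehicle-treated mice, 314, 431, 492, 409 and 741 in pair-fed mice, and 385 to 1091 with a median of 606 with GDF15 treatment. GDF15-treated mice 2 (1091) and 6 (1025) stood highest, and the others overlapped with the remaining groups. Its log2 fold change was 0.64 ± 0.25 in GDF15-treated mice compared with vehicle (unadjusted p = 0.021, adjusted p = 0.342) and 0.52 ± 0.25 compared with pair-fed controls (adjusted p = 0.39).

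Thbs4, a thrombospondin found in tendon and muscle, had its highest values in libraries with high tendon marker sums. It had 917, 1122, 800, 810 and 975 normalized counts in vehicle-treated mice and 1783, 882, 610, 1175 and 1199 in pair-fed mice. In GDF15-treated mice it ranged from 943 to 2111 with a median of 1134. The 2 highest values, 2111 in GDF15-treated mouse 1 and 1783 in pair-fed mouse 2, belonged to libraries among the 4 with the highest tendon marker sums, whose part in the level of Thbs4 was not tested. Its log2 fold change was 0.39 ± 0.22 in GDF15-treated mice (adjusted p = 0.559) and 0.21 ± 0.23 in pair-fed mice (adjusted p = 0.682) compared with vehicle. Without the 4 libraries, the value for pair-fed mice turned to -0.10 (adjusted p = 0.86).

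Of the other glycoprotein genes, Fbn1, which encodes the fibrillin of elastic microfibrils, had a log2 fold change of -0.38 ± 0.21 with pair-feeding compared with vehicle (adjusted p = 0.347) and of 0.23 ± 0.20 with GDF15 treatment compared with pair-fed controls (adjusted p = 0.662). Tnxb, which encodes tenascin X, gave 0.28 ± 0.17 in GDF15-treated mice compared with vehicle (adjusted p = 0.574) and 0.29 ± 0.17 compared with pair-fed controls (adjusted p = 0.483). Fstl1, a secreted follistatin-like glycoprotein, gave 0.27 ± 0.16 (adjusted p = 0.579) and 0.28 ± 0.16 (adjusted p = 0.497) in these comparisons. None of these values stood clear of the spread between mice. Mgp, an inhibitor of calcification, gave -0.21 ± 0.17 in pair-fed mice compared with vehicle (adjusted p = 0.573) and 0.34 ± 0.17 in GDF15-treated mice compared with pair-fed controls (adjusted p = 0.4). Eln, which encodes elastin, was level, with 231 ± 41.2 normalized counts (SD) in vehicle-treated, 228 ± 14.7 in GDF15-treated and 230 ± 25.9 in pair-fed mice. Postn, which encodes periostin, was low at 65.8 ± 21.6, 62.3 ± 21.4 and 64.8 ± 8.89.

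The small leucine-rich proteoglycans, which bind collagen fibrils and shape their diameter, gave 0 of 3 calls in each comparison. Dcn, which encodes decorin, was the most abundant of them. It had 1647, 2598, 1489, 2497 and 2304 normalized counts in vehicle-treated mice, 1883, 1916, 2048, 1702 and 3136 in pair-fed mice, and 2171 to 3359 with a median of 2591 with GDF15 treatment. The lowest GDF15-treated mouse lay above 4 of the 5 pair-fed mice and above 2 of the 5 vehicle-treated mice, and pair-fed mouse 6 stood far above the rest of its group. The log2 fold change of Dcn was 0.37 ± 0.17 in GDF15-treated mice compared with vehicle (unadjusted p = 0.0402, adjusted p = 0.416) and 0.34 ± 0.17 compared with pair-fed controls (adjusted p = 0.385). Lum, which encodes lumican and lies 47.0 kb from Dcn on chromosome 10, had a log2 fold change of -0.38 ± 0.21 with pair-feeding compared with vehicle (adjusted p = 0.354) and of 0.23 ± 0.20 with GDF15 treatment compared with pair-fed controls (adjusted p = 0.658). Bgn, which encodes biglycan, gave -0.20 ± 0.14 (adjusted p = 0.492) and 0.28 ± 0.14 (adjusted p = 0.407) in these comparisons.

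Over the whole list, the median log2 fold change was -0.12 in pair-fed mice and 0.07 in GDF15-treated mice compared with vehicle, and 0.22 in GDF15-treated mice compared with pair-fed controls, each beside a median of 0.00 over all tested genes. The estimate was above 0 for 11, 24 and 31 of the 38 genes in these comparisons. Scaled by equal totals without the 10 most abundant genes, it was above 0 for 9, 24 and 32 genes. Without the 4 libraries with the highest tendon marker sums the medians were -0.23, -0.02 and 0.20, so that the sign for GDF15-treated mice compared with vehicle turned. With single mice left out, the median for pair-fed mice compared with vehicle was -0.0318 without vehicle-treated mouse 2, -0.209 without vehicle-treated mouse 3, -0.0491 without pair-fed mouse 5 and -0.261 without pair-fed mouse 6. That for GDF15-treated mice compared with vehicle was 0.0312, 0.134 and -0.0271 without vehicle-treated mouse 1, 2 or 3, and 0.0152 without GDF15-treated mouse 2. That for GDF15-treated mice compared with pair-fed controls ranged from 0.154 to 0.312. The 38 genes together took 0.228 ± 0.0337% of the normalized counts of a library (SD, n = 5) in vehicle-treated mice, 0.235 ± 0.0245% (n = 6) in GDF15-treated mice and 0.207 ± 0.0301% (n = 5) in pair-fed mice, and the ranges of the 3 groups overlapped.

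Single mice carried high or low values across many of the genes. Vehicle-treated mouse 2 had the highest value of its group for 32 of the 38 genes and vehicle-treated mouse 3 the lowest for 29. Pair-fed mouse 6 was highest of its group for 28 genes, and pair-fed mice 2 and 5 were lowest for 13 each. GDF15-treated mouse 2 was highest for 21 genes and GDF15-treated mouse 5 lowest for 16. The median of the 38 genes relative to the vehicle mean was 0.31 in vehicle-treated mouse 2 and -0.30 in vehicle-treated mouse 3 on the log2 scale, and from -0.37 to 0.25 in pair-fed mice and from -0.17 to 0.36 in GDF15-treated mice.

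**Figure D3:**
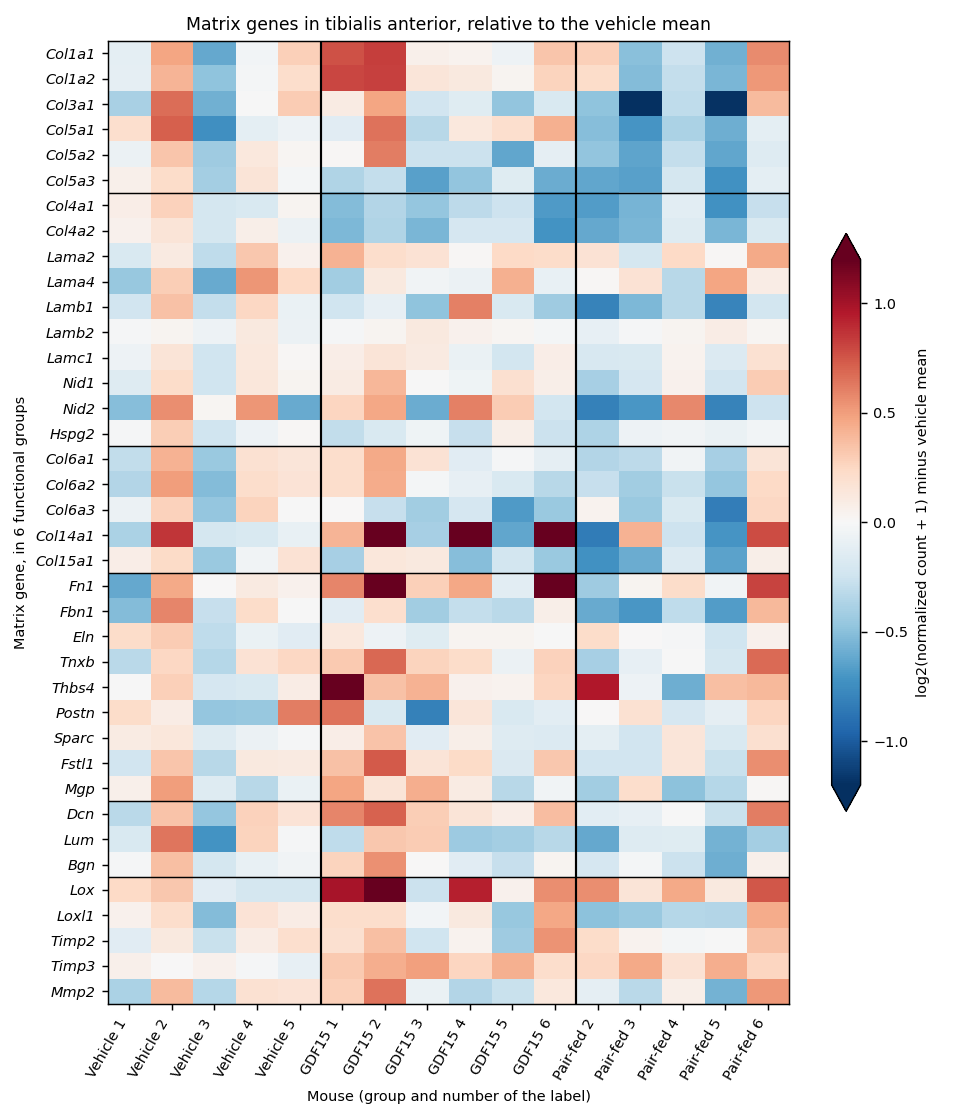
Level of the 38 matrix genes (vertical axis, in 6 groups separated by lines) in the 16 mice (horizontal axis), as log2(normalized count + 1) minus the vehicle mean, with blue below and red above it and colours saturated at 1.2 in either direction. Vehicle-treated mouse 2, GDF15-treated mouse 2 and pair-fed mouse 6 are red over most genes, vehicle-treated mouse 3 is blue, and the row of Timp3 is red in all GDF15-treated and pair-fed mice while those of Col4a1 and Col4a2 are blue.

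Genes that act on the same matrix were followed in 6 further lists, and the genes named from them by the adjusted p-value alone were chosen after their values were seen. Of 26 tested genes of collagen maturation, 3 (11.5%) fell and 0 rose in pair-fed mice compared with vehicle, beside 3.17% and 3.2% of all tested genes. Serpinh1, the collagen chaperone HSP47, fell with a log2 fold change of -0.36 (603 ± 41.4 to 472 ± 48.7 normalized counts, SD; adjusted p = 0.0235) with pair-feeding. P4ha2, a subunit of prolyl 4-hydroxylase, fell by 0.21 on the log2 scale (adjusted p = 0.098), and Tmem38b, a cation channel of the endoplasmic reticulum needed for collagen processing, fell by 0.15 (adjusted p = 0.095). In GDF15-treated mice 0 of the 26 differed from vehicle. Compared with pair-fed controls, 2 (7.69%) rose, beside 2.17% of all tested genes that differed either way, P4ha2 with a log2 fold change of 0.26 (adjusted p = 0.0732) and Tmem38b with one of 0.26 (adjusted p = 0.014). The calls of Serpinh1 held in 28 of 28 alternative settings, those of P4ha2 in 10 and 16, and those of Tmem38b in 13 and 27. The call of Serpinh1 held without the 4 libraries with the highest tendon marker sums (adjusted p = 0.0466). Those of P4ha2 were lost at log2 fold changes of -0.205 and 0.303 (adjusted p = 0.274 and 0.259), and those of Tmem38b at -0.15 and 0.255 (adjusted p = 0.262 and 0.196), all close to or beyond the values with all mice.

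Of 17 tested matrix proteases and inhibitors, Mmp15, a membrane-bound metalloproteinase, fell in pair-fed mice with a log2 fold change of -0.30 (adjusted p = 0.0314) and in GDF15-treated mice with one of -0.31 (adjusted p = 0.0682), both compared with vehicle, and 0 rose. That is 5.88% of the list in each comparison, beside 6.37% and 0.769% of all tested genes. Of 20 genes of the TGF-beta pathway, a main inducer of matrix genes, 1 (5%) fell in pair-fed mice, beside 6.37% of all tested genes that differed either way. This was Smad3, a transcription factor of the pathway, with a log2 fold change of -0.50 (1838 ± 213 to 1301 ± 153 normalized counts; adjusted p = 0.0194), and 0 of 20 differed in the other comparisons. Of 21 matrix receptors 1 (4.76%) passed with pair-feeding against vehicle, and 1 between the GDF15 and pair-fed groups, beside 6.37% and 2.17% of all tested genes. Sdc4, which encodes the heparan sulfate proteoglycan syndecan-4, fell in pair-fed mice with a log2 fold change of -0.54 (adjusted p = 0.00353) and was higher in GDF15-treated mice than in pair-fed controls by 0.34 (adjusted p = 0.0696). Of 19 tested collagen genes outside the list of 38, 0 passed in any comparison, beside 6.37%, 0.769% and 2.17% of all tested genes. At an unadjusted p-value under 0.05 there were 1, 1 and 2, beside 18.9%, 11% and 13.2%. The order is pair-fed and GDF15-treated mice compared with vehicle, then GDF15-treated mice compared with pair-fed controls. Of 28 alternative settings, 27 kept the call of Smad3, 27 and 18 those of Mmp15 in pair-fed and GDF15-treated mice, and 28 and 17 those of Sdc4. Leaving out the 4 libraries with the highest tendon marker sums, the call of Smad3 was lost at a log2 fold change of -0.428 (adjusted p = 0.16). Those of Mmp15 were lost at -0.268 in pair-fed mice (adjusted p = 0.147) and at -0.302 in GDF15-treated mice (adjusted p = 0.137). For Sdc4 the call between the GDF15 and pair-fed groups was lost at a larger log2 fold change of 0.427 (adjusted p = 0.217), and that in pair-fed mice held (adjusted p = 0.0241).

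Among 39 tested other matrix proteins, 2 (5.13%) passed both thresholds in GDF15-treated mice compared with vehicle, beside 0.304% of all tested genes, and 1 (2.56%) compared with pair-fed controls, beside 0.279%. Spock2, which encodes the proteoglycan testican-2, had 88.2 ± 15.7 normalized counts (SD) in vehicle-treated and 141 ± 23.1 in GDF15-treated mice, a log2 fold change of 0.67 (adjusted p = 0.0453), in 23 of 28 alternative settings. Thbs2, a thrombospondin made by fibroblasts, had 78.3 ± 9.91 and 180 ± 78.7, a log2 fold change of 1.09 (adjusted p = 0.0899), and its call held in 13 of 28 alternative settings. Ogn, which encodes the small proteoglycan osteoglycin, rose in GDF15-treated mice compared with pair-fed controls, from 245 ± 76.4 to 379 ± 81.0 normalized counts with a log2 fold change of 0.65 (adjusted p = 0.0922), in 10 of 28 alternative settings. The call of Thbs2 held without the 4 libraries with the highest tendon marker sums (adjusted p = 0.0928), and those of Spock2 and Ogn were lost at log2 fold changes of 0.536 (adjusted p = 0.178) and 0.695 (adjusted p = 0.201). In pair-fed mice compared with vehicle 0 of 39 passed. At an unadjusted p-value under 0.05 there were 5 of the 39 in pair-fed and 14 in GDF15-treated mice compared with vehicle, and 6 in GDF15-treated mice compared with pair-fed controls, beside 18.9%, 11% and 13.2% of all tested genes. The median log2 fold change of these proteins was 0.04 in pair-fed mice and 0.35 in GDF15-treated mice compared with vehicle, and 0.24 in GDF15-treated mice compared with pair-fed controls.

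Markers of the cell types that a muscle holds were set beside these results. All 12 fibroblast markers were detected, and their sum was 1670 to 2491 normalized counts in vehicle-treated, 1886 to 3271 in GDF15-treated and 1523 to 2955 in pair-fed mice. Its highest values were those of GDF15-treated mouse 2 (3271) and pair-fed mouse 6 (2955), which were also the mice with most of the highest matrix values of their groups. When GDF15-treated mice were compared with pair-fed controls, 12 of 12 fibroblast markers had an estimate above 0 and 0 passed the test, with a median of 0.33 beside the 0.22 of the matrix genes. Compared with vehicle, 11 of 12 were above 0 in GDF15-treated mice, with a median of 0.335 beside the 0.0676 of the matrix genes, and 4 of 12 in pair-fed mice, with a median of -0.0997 beside -0.118. Between the GDF15 and pair-fed groups the estimate was also above 0 for 10 of 10 macrophage markers, with a median of 0.426, and for 7 of 7 Schwann cell markers, with a median of 0.333, and 0 of either list passed. The part of these cells in the matrix values was not tested. Osr1, a fibroblast transcription factor, rose in GDF15-treated mice compared with vehicle from 25.7 ± 3.75 to 42.7 ± 7.12 normalized counts (log2 fold change 0.70, adjusted p = 0.0993), a call that held in 5 of 27 alternative settings that kept the gene and was lost without the 4 libraries at a log2 fold change of 0.685 (adjusted p = 0.238). Osr1 was the only 1 of 12 fibroblast markers (8.33%) called in that comparison, beside 0.769% of all tested genes. The fibroblast markers with the most counts, Cd34, Ly6a and Pi16, did not pass the test.

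Single genes of the tendon cell list had the largest fold changes of the marker lists compared with vehicle. Of 5 tested, 2 (40%) were called with pair-feeding and 1 (20%) with GDF15 treatment against vehicle, beside 6.37% and 0.769% of all tested genes. Angptl7, a secreted factor of tendon, had 27.2 ± 12.2 normalized counts (SD) in vehicle-treated, 201 ± 160 in GDF15-treated and 110 ± 62.7 in pair-fed mice, with a log2 fold change of 2.61 with GDF15 treatment (adjusted p = 0.0165) and of 1.86 with pair-feeding (adjusted p = 0.0417) compared with vehicle. Chad, which encodes chondroadherin, had 20.0 ± 5.34, 131 ± 119 and 105 ± 76.5, with a log2 fold change of 2.09 with pair-feeding (adjusted p = 0.0546) and of 2.15 with GDF15 treatment (adjusted p = 0.114). Without the 4 libraries, which were set apart by these same markers, the call of Angptl7 with GDF15 treatment held (adjusted p = 0.0167) and those with pair-feeding were lost, for Angptl7 at a log2 fold change of 1.27 (adjusted p = 0.12) and for Chad at one of 1.38 (adjusted p = 0.147). Of 28 alternative settings, 28 and 23 kept the calls of Angptl7, and 22 that of Chad. The tendon sums of GDF15-treated and pair-fed mice lay above all vehicle-treated mice, and Tnmd, the defining marker tenomodulin, was detected at 21.1 ± 7.61, 46.7 ± 25.2 and 41.5 ± 22.2 normalized counts. Without the 4 libraries, tendon sums of GDF15-treated mice (178 to 399) and pair-fed mice (176 to 207) still lay above all vehicle-treated mice. That fit therefore does not remove the tendon difference, and the part of tendon RNA in the matrix differences was not tested. Timp3 kept its call in both comparisons in that fit.

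Endothelial cells also make collagen IV, and 1 of their markers fell in both groups that ate less. The sum of 12 endothelial markers was 7726 to 9018 normalized counts in vehicle-treated, 6648 to 8190 in GDF15-treated and 6665 to 8216 in pair-fed mice, so that the groups overlapped. Kdr, which encodes the VEGF receptor 2, fell from 1230 ± 72.5 to 873 ± 110 normalized counts in pair-fed mice (log2 fold change -0.50, adjusted p = 0.00473) and to 783 ± 92.7 in GDF15-treated mice (log2 fold change -0.66, adjusted p = 0.00116). The other 11 markers, among them Cdh5, Flt1 and Pecam1, did not pass the test. Kdr alone is 1 of 12 (8.33%) in each comparison with vehicle, beside 6.37% of all tested genes in pair-fed and 0.769% in GDF15-treated mice. The estimate was below 0 for 9 of 12 markers in pair-fed mice, with a median of -0.125. It was below 0 for 12 of 12 in GDF15-treated mice compared with vehicle, with a median of -0.134. At an unadjusted p-value under 0.05 there were 6 and 4 of the 12, beside 18.9% and 11% of all tested genes. Both calls of Kdr held in 28 of 28 alternative settings. Of 9 mural cell markers, led by Rgs5, Abcc9 and Acta2, 0 passed in any comparison. The part of endothelial RNA in the levels of Col4a1 and Col4a2 was not tested.

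Among 10 macrophage markers, Ptprc, the leukocyte antigen CD45, fell in pair-fed mice from 17.2 ± 4.36 to 8.75 ± 4.08 normalized counts (log2 fold change -0.97, adjusted p = 0.0634). That is 1 of 10 (10%), beside 6.37% of all tested genes. The other 9 macrophage markers, led by Lyz2, Csf1r and Mrc1, did not pass. The macrophage sums were 363 to 634 in vehicle-treated, 324 to 713 in GDF15-treated and 258 to 701 in pair-fed mice. Sums of 7 Schwann cell markers were 576 to 907, 730 to 986 and 438 to 1070, with 7 of 7 estimates below 0 in pair-fed mice (median -0.155) and 7 of 7 above 0 in GDF15-treated mice (median 0.202) compared with vehicle, and 0 passed in any comparison. Of the adipocyte markers, led by Cfd, Adipoq and Plin1, of the red blood cell markers Hba-a1, Hbb-bt and Alas2, and of the satellite cell markers, led by Cdh15, Pax7 and Myf5, 0 passed in any comparison. Compared with vehicle, 7 of 7 adipocyte markers had an estimate above 0 in pair-fed and GDF15-treated mice (medians 0.663 and 0.374). For red blood cell markers it was 2 of 3 and 3 of 3 (medians 0.0687 and 1.24). Between the GDF15 and pair-fed groups it was 3 of 7 (median -0.182) and 3 of 3 (median 1.17). Red blood cell sums spanned 260 to 3146 in vehicle-treated mice alone, and the adipocyte sum was highest in GDF15-treated mouse 2 (1313). Of 11 muscle fibre markers 3 (27.3%) passed in pair-fed mice compared with vehicle, beside 6.37% of all tested genes, and 1 (9.09%) in GDF15-treated mice compared with pair-fed controls, beside 2.17%. Myh1, the fast myosin heavy chain IIx, fell in pair-fed mice from 165400 to 104500 normalized counts (log2 fold change -0.68, adjusted p = 0.0123). Actn3, a fast-fibre actinin, rose there with a log2 fold change of 0.33 (adjusted p = 0.0167) and Ckm, muscle creatine kinase, with one of 0.15 (adjusted p = 0.0997). Actn3 was lower in GDF15-treated mice than in pair-fed controls by a log2 fold change of -0.27 (adjusted p = 0.0678). Of 28 alternative settings, 27 kept the call of Myh1, 27 and 17 those of Actn3 and 9 that of Ckm, and 19 of 27 kept that of Ptprc. All 5 of these calls were lost without the 4 libraries with the highest tendon marker sums. The log2 fold change was then -0.509 for Myh1 (adjusted p = 0.119), 0.28 and -0.242 for Actn3 (adjusted p = 0.119 and 0.349), 0.147 for Ckm (adjusted p = 0.199) and -0.625 for Ptprc (adjusted p = 0.391). Myh4 and Acta1, the fibre markers with the most counts, did not pass the test.

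**Figure D4:**
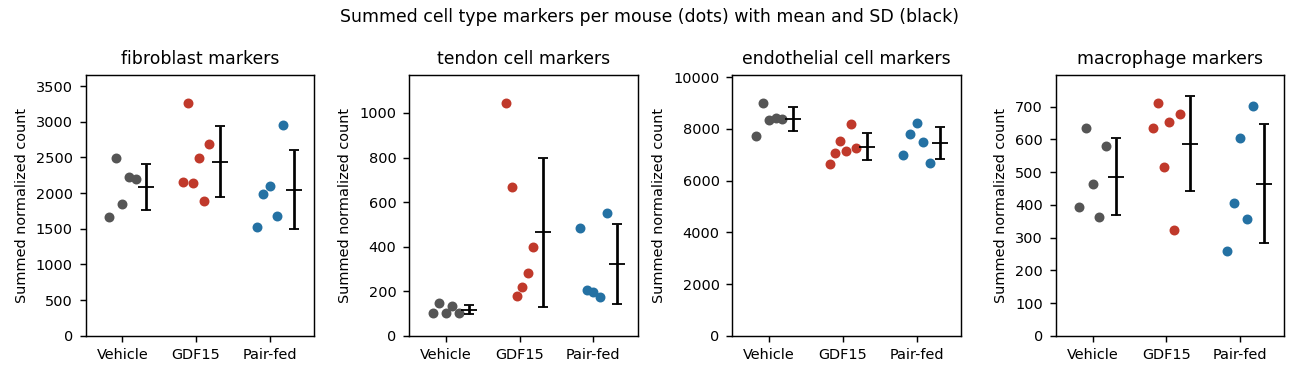
Summed normalized counts (y axis) of fibroblast, tendon cell, endothelial cell and macrophage markers in each mouse (dots) of the 3 groups (x axis), with the mean and SD in black. Tendon sums lie between 101 and 147 in vehicle-treated mice and reach 1047 in GDF15-treated mice, endothelial sums are lower in most GDF15-treated and pair-fed mice than in vehicle-treated mice, and fibroblast and macrophage sums overlap between the groups.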

How the data were processed

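The labels gave the group and number of each of the 16 libraries, 1 per mouse. The mice of different groups share numbers but are different animals, and deviations of same-numbered mice did not move together (correlations from -0.0994 to 0.0665), so no pairing was used. Members and lists were chosen with earlier results of these data known.

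The authors made paired reads of total RNA, trimmed them (Trim Galore), estimated transcript levels (Salmon) and scaled libraries (DESeq2). The processing notes name the mm10 build. Tool versions, the annotation and the strand setting of counting are not given in the sources used here. The authors deposited log2 values from 7.32 to 19.96 for 14538 genes, of which 8459 values lie at the lowest, which stands for 0. These fit the closed form of DESeq2's variance stabilizing transformation and were transformed back to normalized counts, which returned the deposited values within 1.8e-15. The design had assumed normalized counts, and the tests were kept as planned. In genes with 1 annotated transcript 82.5% to 95.2% of low values lay within 0.1 reads of a whole multiple of 1 step per library, and in genes with more than 4 transcripts 21.1% to 25.8%. The library kit marks strand, and exons of Col4a1, Col4a2, Col5a1, Col15a1, Lama2, Nid1, Nid2, Fn1, Fbn1, Eln, Tnxb, Lox and Timp3 overlap exons on the other strand, which makes their counts uncertain if strand was ignored. Whole reads were therefore not recovered and no count test was run. Depth was approximated as the sum of the normalized counts over that step, and spans 9482760 to 15039300 reads. A gene at the minimum mean of 10 carries few reads per library, so its spread between mice includes counting noise.

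With limma 3.58.1 in R 4.3.3 (lmFit, contrasts.fit, eBayes with trend), the 11841 genes averaging 10 or more normalized counts were compared on log2(normalized count + 1), all 3 groups in 1 fit without covariates. Tests are two-sided, and p-values were adjusted over all tested genes by the Benjamini-Hochberg method. The procedure was tested on simulated data. Python 3.11.15 with pandas 2.3.3 was used for the rest. Positions are from GENCODE vM21, in which 14264 symbols were found, and upstream sequences from RefSeq. Alternatives were the deposited values untransformed, other pseudocounts and minimums, no trend, library weights, 2 groups only, other scalings, a stricter threshold, the mouse number as a block and each library left out. A fit without the 4 libraries with the highest tendon marker sums was added after seeing the data.

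All 38 members are named. A log2 fold change of a member is printed where it is at least 0.2 in size or passed the adjusted p-value. Values per mouse are given for members that passed and for the member with the highest mean in each group of genes. They are also given for Lox, Col5a1, Fn1 and Thbs4, which were chosen after their values were seen. In these genes the GDF15 group is given as a range and median, and for Col5a1 only the pair-fed mice are listed singly. From the related and marker lists, genes past both thresholds and the markers with the highest means are named, and genes past the adjusted p-value alone were added after their values were seen. Of the Schwann cell markers, 1 gene is not reported here, and the values of that list are those of the other 7.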

Additional observations from a re-analysis of the deposited data

Results flagged for a closer look

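Dixon's ratio was applied to each of the 38 genes in each of the 3 groups, and 10 of 114 groups, in 9 genes, held a mouse far from the others of its group. Chance gives about 1 in 20 for groups that are independent of each other. Single mice were high or low across many of these genes, so the 10 cannot be read against that rate. Pair-fed mouse 6 was set apart as the highest of its group in 5 genes, Col6a2 (579.5 normalized counts, next 406.5), Fbn1 (364.5, next 224.7), Tnxb (1012, next 628), Dcn (3136, next 2048) and Loxl1 (211.5, next 121.6). Pair-fed mouse 2 was far below its group in Hspg2 (2098, next 2559). In the vehicle group, mouse 2 was far above the others in Col14a1 (91.6, next 47.1) and mouse 3 far below in Loxl1 (107.4, next 159.9). In the GDF15 group, mouse 4 was far above the others in Lamb1 (377.9, next 231.8) and mouse 1 in Thbs4 (2111, next 1227).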

How the results depend on the processing

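With each library left out in turn, the number of matrix genes past both thresholds in pair-fed compared with vehicle-treated mice was 0 to 1 (Col5a1 without vehicle-treated mouse 3), and the number past the adjusted p-value alone was 2 to 5, with 2 (Col4a1 and Timp3) without vehicle-treated mouse 2, pair-fed mouse 2 or pair-fed mouse 5. In GDF15-treated compared with vehicle-treated mice it was 1 to 3. It was 1 (Timp3) without vehicle-treated mouse 1, 2, 4 or 5, GDF15-treated mouse 1, 2, 3 or 6, or pair-fed mouse 3 or 5, and also with no filter on low values, no trend, quantile normalization or equal totals without the 10 most abundant genes. Without the 4 libraries with the highest tendon marker sums, chosen after seeing the data, it was 1 in each of these comparisons, and the log2 fold change of Thbs4 in pair-fed mice turned to -0.0968. With the replicate block by mouse number, although nothing pairs the mice, the numbers past the adjusted p-value were 6 for pair-fed and 1 for GDF15-treated mice compared with vehicle, and 1 gene, Col5a1, passed both thresholds and the adjusted p-value between GDF15-treated and pair-fed mice. The medians of the 38 genes moved by less than the spread of the median between mice of a group (0.22 on the log2 scale) in every alternative. This spread is larger in size than the medians compared with vehicle (-0.118 and 0.0676), so it cannot show whether those were stable. The median of GDF15-treated mice compared with vehicle turned to -0.0214 without the 4 libraries and to -0.0271 without vehicle-treated mouse 3. Of 2210 gene values for 79 fold changes under 28 alternatives, 1988 kept direction and call, 210 lost the call, 11 gained it and 1, that of Thbs4, changed sign. Why settings differed was not tested. What depth limits was not tested.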
